A study of Mus musculus with 4 samples.

Results

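Teneurins, latrophilins and Flrt proteins are surface molecules that bind each other across the cleft between cells. The 10 mouse genes Tenm1 to Tenm4, Adgrl1 to Adgrl3 and Flrt1 to Flrt3 were taken by symbol, without regard to their values, and are 10 of the 32285 genes in the files. Their RNA was read in nuclei from whole hypothalamus of aging mice, about 18 months old. The series has 2 matrices labelled Transplanted, from mice given hypothalamic stem cells grown from hPSCs (human pluripotent stem cells), and 2 labelled Control, from mice of the same age. Strain, sex and the number of mice behind each matrix are not stated. The titles of the first matrix of each label join a pair of animal codes.

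The matrices labelled Transplanted could not be compared with those labelled Control, because they are the same nuclei under both labels. Transplanted replicate 1 and Control replicate 1 had 4020 and 4008 barcodes, of which 3997 were common to both. Transplanted replicate 2 and Control replicate 2 had 2151 and 2150 barcodes, with 2144 in common. Matrices that are not twins had 4 barcodes in common. The level of each of the 10 genes in a Transplanted matrix was between 0.978 and 1.08 times that in its Control twin. Whether these nuclei came from mice with or without transplanted cells therefore cannot be told from the labels. Everything that follows uses the 2 Control matrices, with 8779880 and 4924563 unique molecular identifiers (UMIs) and medians of 1813 and 2049 UMIs per nucleus. Control is used below only as the name of these matrices. Unless stated otherwise, the tests take out what differs between the 2 libraries in all groups alike. Since the mice behind the libraries are not stated, p-values measure only how group differences vary between these 2 libraries, which may be technical.

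Teneurins are large type II membrane proteins whose extracellular part binds latrophilins, the adhesion G protein-coupled receptors encoded by Adgrl genes. Latrophilins also bind Flrt proteins, which carry leucine-rich repeats and in turn bind Unc5 receptors. These contacts are known from work on synapse formation and on the guidance of migrating neurons and axons. Levels are given as CPM, UMI counts of the summed nuclei scaled to a fixed total, and are compared only within a gene, since long genes with long introns give more nuclear reads. A fall in nuclear RNA per nucleus and fewer expressing nuclei in a group cannot be told apart in such sums.

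Nuclei fell into 6 classes named by fixed markers. Neurons made up 72.1% ± 4.66 of nuclei (SD, n = 2 libraries), with 3020 and 1463 nuclei. The glial classes were smaller, with 374 and 286 oligodendrocytes, 303 and 201 astrocytes, 134 and 72 oligodendrocyte precursors, 117 and 56 tanycytes, and 55 and 47 microglia. Tanycytes are the radial cells that line the third ventricle. The tanycyte cluster rested on 3 of its markers and also had the endothelial gene Flt1 and the globin gene Hbb-bs among its leading genes. The 12 neuron markers, read in glia as a measure of free or neighbouring RNA, had a median of 8.71% of their neuron level in astrocytes, 4.19% in oligodendrocytes, 7.33% in precursors, 8.65% in microglia and 8.52% in tanycytes.

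Tenm2 kept more of its neuron level in oligodendrocytes than the other 3 teneurins did. It stood at 752 and 623 CPM in oligodendrocytes and 733 and 855 CPM in precursors, against 3685 and 3318 CPM in neurons, so both glial classes lay below neurons and far above astrocytes, at 48.2 and 84.0 CPM. The oligodendrocyte level was 19.6% of the neuron level, where the neuron markers ranged from 2.23% to 31.1%. The log2 difference from neurons was -2.30 ± 0.14 in oligodendrocytes (SE, edgeR quasi-likelihood test, adjusted p = 1.43e-55). In tanycytes Tenm2 stood at 26.8 and 34.1 CPM, from 3 and 2 UMIs.

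Tenm1 was shared between neurons and precursors. Its level was 380 and 550 CPM in precursors, against 707 and 720 CPM in neurons, and the libraries did not overlap. No more than 40.1 CPM was read in any other class. Precursors were lower than neurons by a log2 difference of -0.65 ± 0.18 (SE, edgeR, adjusted p = 0.00118). The precursor level of Tenm1 was 65.2% of its neuron level, where the neuron markers ranged from 2.73% to 95.7% (median 7.33%).

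Tenm3 had a different spread over glia. It stood at 369 and 431 CPM in astrocytes and 456 and 307 CPM in tanycytes, against 644 and 680 CPM in neurons. The log2 differences from neurons were -0.73 ± 0.16 in astrocytes and -0.99 ± 0.21 in tanycytes (SE), and both passed the edgeR test. Precursors gave 105 and 356 CPM, a spread too wide to place them. Tenm4 stood at 149 and 190 CPM in astrocytes, against 518 and 744 CPM in neurons. In precursors it gave 1 UMI in both libraries together, at 0 and 10.2 CPM, where 3 counts would be 19.6 and 30.5 CPM.

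The latrophilins split by class. As a share of UMIs, Adgrl3 was higher in astrocytes (3593 and 2721 CPM) and precursors (3458 and 2474 CPM) than in neurons (2315 and 1779 CPM). The log2 differences were 0.63 ± 0.13 (SE, edgeR adjusted p = 3.60e-06) and 0.55 ± 0.13 (SE, edgeR adjusted p = 0.000172). Median depth was 752 and 811 UMIs per nucleus in astrocytes and 1031 and 1196 in precursors, against 2269 and 2633 in neurons. Adgrl3 was lower in each library in tanycytes (1197 and 818 CPM) and oligodendrocytes (433 and 323 CPM) than in neurons. Adgrl1 stood at 157 and 204 CPM in precursors, against 71.4 and 101 CPM in neurons, with a log2 difference of 1.10 ± 0.29 (SE, edgeR adjusted p = 0.000561). Its astrocyte level of 76.3 and 140 CPM was not called different from that of neurons.

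Adgrl2 had the opposite distribution. Tanycytes held 152 and 119 CPM, against 204 and 192 CPM in neurons, with a log2 difference of -0.81 ± 0.32 (SE, edgeR adjusted p = 0.0261). Astrocytes held 1 UMI in each library, precursors 1 UMI in all, and oligodendrocytes 0 UMIs in both, where 3 counts would be 10.7 and 13.8 CPM. Microglia gave 105 and 30.7 CPM from 4 UMIs and 1 UMI. After thinning each nucleus to 500 UMIs, Adgrl2 was seen in 9.11% and 7.86% of neurons and in 6.84% and 8.93% of tanycytes, against 0% and 0% of oligodendrocytes (unthinned, 31.8% and 34.4% of neurons and 11.97% and 10.71% of tanycytes).

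Among the Flrt genes, Flrt2 stood at 124 and 157 CPM in astrocytes and 105 and 102 CPM in precursors, against 157 and 142 CPM in neurons, and neither class was called different from neurons. Tanycytes gave 277 CPM in one library and 51.1 CPM in the other, so 1 library sets that mean. The 31 UMIs behind the higher value came from 4.27% of 117 tanycyte nuclei, and the lower value rests on 3 UMIs. Oligodendrocytes gave 7.16 and 4.62 CPM. Flrt3 stood at 58.9 and 61.1 CPM in precursors and 20.1 and 11.2 CPM in astrocytes, against 78.1 and 87.8 CPM in neurons, and the astrocyte difference of -2.32 ± 0.46 log2 units passed (SE, edgeR adjusted p = 2.87e-06). Flrt1 did not pass the filter on low counts and has no test between classes. Its level was 52.2 and 78.4 CPM in astrocytes, from 13 and 14 UMIs, against 11.3 and 18.3 CPM in neurons. Adgrl1, Flrt1, Flrt2 and Flrt3 were at 0 UMIs in the microglia of both libraries, where 3 counts would be 78.7 and 92.1 CPM, so low levels could not be detected there.

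**Figure D1:**
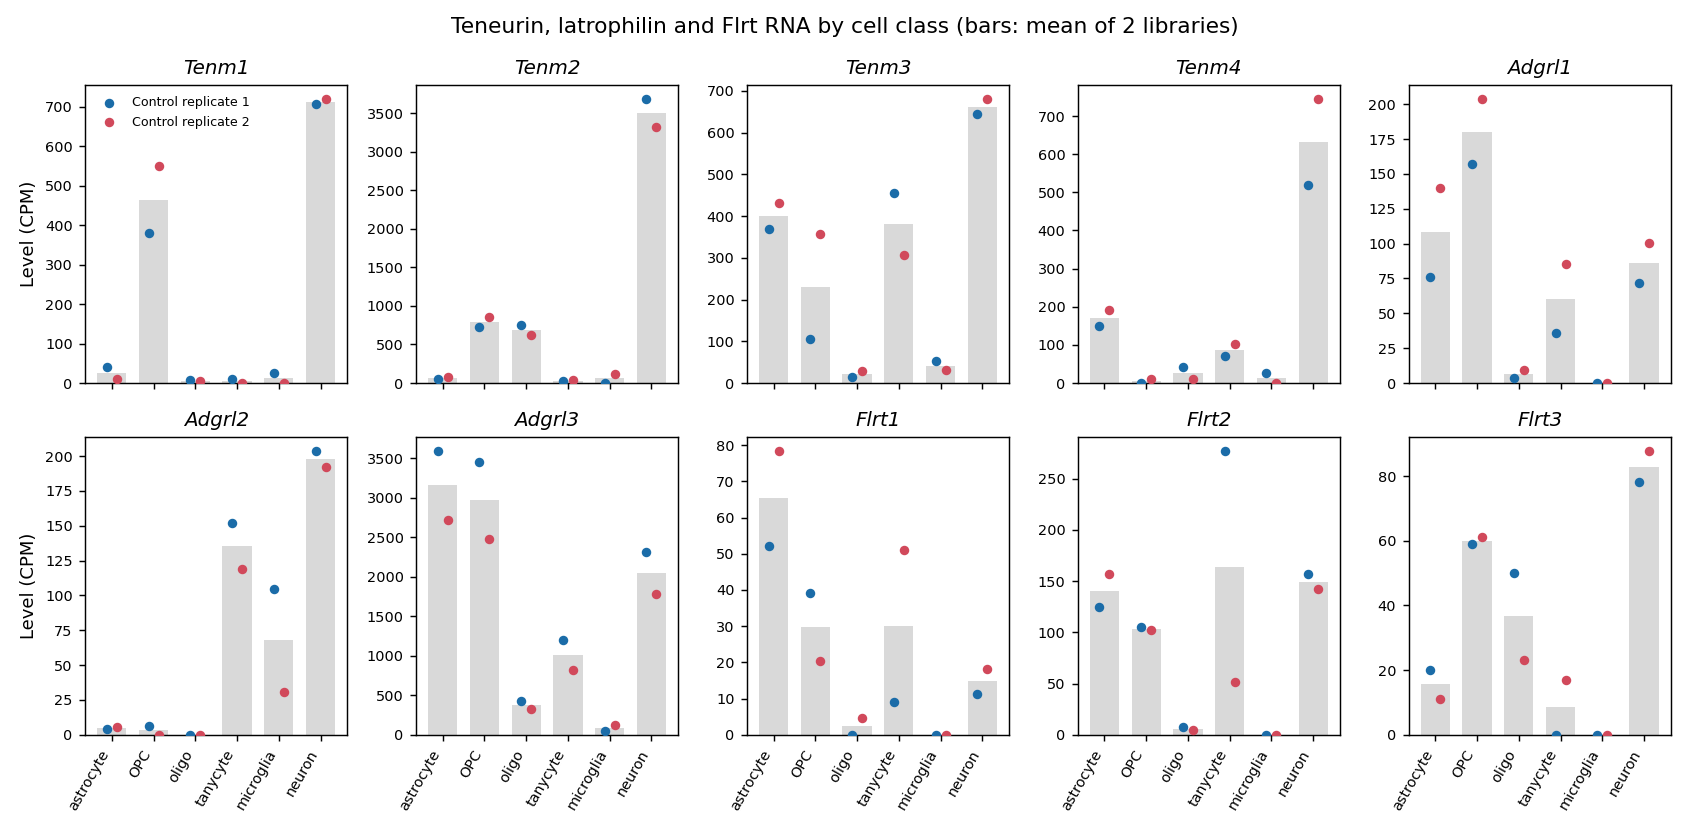
Level of each gene (CPM of summed nuclei, linear axes from 0) in 5 glial classes and neurons; points are the 2 Control libraries and bars their mean, with OPC for oligodendrocyte precursors and oligo for oligodendrocytes. Adgrl3 is higher in astrocytes and precursors than in neurons, and Adgrl2 is at or near 0 in astrocytes, precursors and oligodendrocytes.

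Set against neurons, 36 of the 45 differences between a glial class and neurons were lower and 3 higher, over the 9 tested members. Over all genes, 23.9% of such tests were lower and 19.2% higher. All 9 were lower in oligodendrocytes and in microglia, 7 in tanycytes, 6 in astrocytes and 5 in precursors. The shares over all genes are for the 5 classes together, not for each class. In microglia the 9 include Adgrl1, Flrt2 and Flrt3, with 0 UMIs in both libraries. There 3 counts would be 78.7 and 92.1 CPM, against 71.4 and 101 CPM of Adgrl1 and 78.1 and 87.8 CPM of Flrt3 in neurons. This contrast was added after the data were seen.

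Each class was also set against the log-scale mean of the 5 remaining classes. In neurons 9 of 9 members were higher (median log2 difference 3.49), where 32.9% of all genes were higher and 13.3% lower. Astrocytes had 5 higher and 1 lower (all genes, 21.4% and 6.84%), precursors 6 higher and 1 lower (20.8% and 3.59%), oligodendrocytes 1 higher and 4 lower (20.9% and 10.9%), tanycytes 3 higher and 2 lower (15.5% and 4.87%) and microglia 0 higher by edgeR or DESeq2 (1 at an unadjusted p under 0.05 in each) and 5 lower (12.5% and 17.2%). Over nuclei with at least 1000 UMIs there were 23 calls in place of 37, and the direction of 6 called glial differences turned round: 2 of the 3 higher in tanycytes (Tenm3 -0.43 and Flrt2 -0.49 log2 units), 3 of the 4 lower in oligodendrocytes (Adgrl2 2.56, Tenm3 0.20 and Tenm1 4.46) and Flrt2 in astrocytes (-0.16). Flrt2 in tanycytes was also -0.12 at leiden resolution 0.5. Oligodendrocyte Tenm4, not called before, was then higher (2.97), with a cluster of high neuron markers in that class. The average takes in classes with 0 counts, whose fitted value depends on a prior, so the levels above describe the small classes better than these fitted differences.

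The fixed lists hold some partners of the members, such as Unc5 receptors, beside genes of related families and of signalling. In neurons against the average of other classes, where 32.9% of all genes were higher and 13.3% lower, 6 of 11 tested FLRT and netrin receptors were higher and 1 lower (median log2 difference 2.52, against 0.25 over all genes). Unc5d, a receptor for netrins and Flrt proteins, was higher by 5.55 ± 0.17 log2 units, and Fgfr2, a growth factor receptor, was lower by -0.33 ± 0.12 (SE). Of 12 leucine-rich repeat synaptic organisers 10 were higher (median 2.80), among them Lingo2 and Lrrtm4, and of 6 other adhesion receptors 2 were higher (median 1.22), Adgrb3 and Adgrb1, a share near that of all genes. Of 17 signalling and scaffold genes 10 were higher (median 0.86), led by the neurexin Nrxn3, and 4 were lower, among them the G protein subunits Gna12, Gnai2 and Gna13. Precursors had the same count of higher leucine-rich repeat organisers, 10 of 12, where 20.8% of all genes were higher, with Lrrtm4 at 5.35 ± 0.16 log2 units (SE). Microglia had 7 of the 12 lower, where 17.2% of all genes were lower. Each direction named here passed the edgeR test at an adjusted p of 0.05.

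Neurons formed 15 groups, called here by a pair of their leading genes. The 11 groups with at least 20 nuclei in each library were tested, each against the mean of the other 10 on the log scale. Of 110 tests of members, 24 were higher and 13 lower (all genes, 4.8% higher and 2.35% lower). Without library as a block, 17 differences were called in place of these 37. Flrt1 and Flrt3 were called in 0 of 22 tests by edgeR (6 at an unadjusted p under 0.05) and in 0 by DESeq2 (5). The genes differed in how far they ranged. Over the 15 groups, Tenm2 spanned group means of 213.8 to 5720 CPM, while Adgrl1 spanned 40.5 to 153.8 CPM with neighbours in the order overlapping everywhere.

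The group led by Vipr2 and Vip differed in 8 of the 10 genes. It also had Prok2 among its leading genes, so all 3 suprachiasmatic markers were there and the group is suprachiasmatic-like, from 104 and 60 nuclei. The suprachiasmatic nucleus is the seat of the circadian clock. Of all genes, 6.08% were higher and 5.94% lower in this group, and of the 10 members 4 were higher and 4 lower (median log2 difference -0.15).

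Tenm3 was higher. It stood at 2746 and 2345 CPM in the Vipr2 Vip group, against 432.6 to 956.5 CPM over the libraries of the 10 other tested groups, with no overlap. The log2 difference was 2.03 ± 0.12 (SE, edgeR adjusted p = 9.68e-23). Flrt2 was likewise higher, at 351.5 and 362.9 CPM, against 41.6 to 272.7 CPM in the others, a log2 difference of 1.33 ± 0.18 (SE, edgeR adjusted p = 5.56e-08). Adgrl1 was at 148.3 and 159.3 CPM, against 34.8 to 130.7 CPM, and its log2 difference of 1.10 ± 0.25 passed the edgeR test (SE, adjusted p = 0.00145).

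The other main teneurins and latrophilins were lower there. Tenm1 stood at 104.3 and 106.2 CPM in the Vipr2 Vip group, against 496.5 to 1048 CPM in the others, a log2 difference of -2.79 ± 0.23 (SE, edgeR adjusted p = 6.55e-16). Tenm2 stood at 873.1 and 1115 CPM, against 1862 to 6152 CPM in the others, a log2 difference of -1.92 ± 0.15 (SE, edgeR adjusted p = 1.31e-16). Neither gene overlapped between this group and the other tested groups. Adgrl3 stood at 604.1 and 708.1 CPM, against 882.7 to 3112 CPM, a log2 difference of -1.67 ± 0.15 (SE, edgeR adjusted p = 6.62e-14). Adgrl2 gave 5 and 2 UMIs, or 27.5 and 17.7 CPM, where 3 counts would be 16.5 and 26.6 CPM, against 122.3 to 350.0 CPM in the other tested groups. Among groups too small for this test, Cartpt Nlrc5 neurons had Adgrl2 at 40.1 and 0 CPM, from 7 and 0 UMIs. Their Tenm2, at 355.5 and 555.3 CPM, was below that of the Vipr2 Vip group. Adgrl2 was also low in Lef1 Rspo2 (58.0 and 103.6 CPM) and Avp Oxt neurons (71.0 and 104.2 CPM).

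Tenm4 had the smallest difference of the 8. It stood at 735.9 and 1168 CPM in the Vipr2 Vip group, against 378.9 to 998.7 CPM in the others, so the ranges overlapped. Its log2 difference of 0.67 ± 0.12 (SE, edgeR adjusted p = 3.32e-05) was -0.15, with adjusted p = 0.744, over nuclei with at least 1000 UMIs, and had an adjusted p of 0.0901 without library as a block. Flrt3 was not called, at 109.8 and 123.9 CPM, nor was Flrt1, with 1 UMI in each library. Summed oligodendrocyte markers were 450.3 and 336.3 CPM in this group, against 59.6 to 212.1 CPM in the other groups apart from Cartpt Nlrc5 (464.5 and 496.8 CPM) and Eif5 Il33 (1615 and 1627 CPM), and their part in these differences was not tested.

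**Figure D2:**
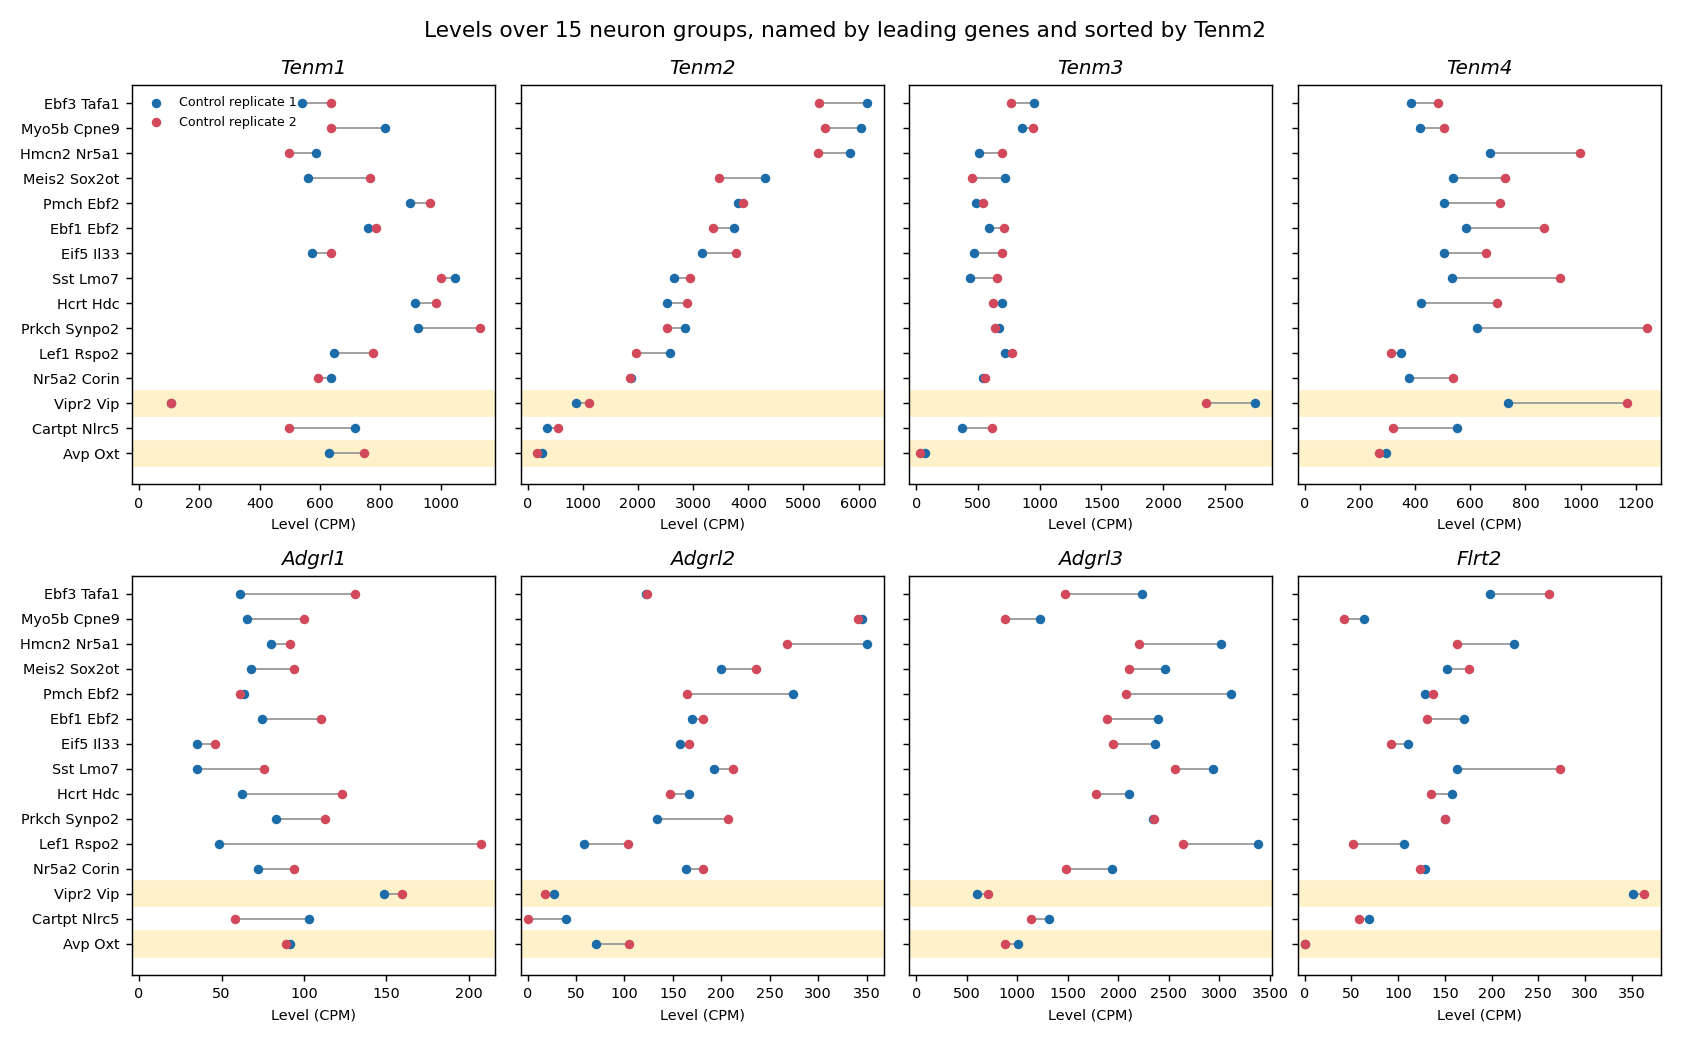
Level (CPM) of 8 genes in 15 neuron groups, sorted by Tenm2; points are the 2 Control libraries, lines join them, and shading marks the Vipr2 Vip and Avp Oxt groups. The Vipr2 Vip group is highest for Tenm3 and Flrt2 and lowest for Tenm1, and the Avp Oxt group is at 0 for Flrt2.

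Within fixed lists, the Vipr2 Vip group had lower Robo1, Robo2 and Dcc, which are receptors for slits and netrin, at log2 differences of -2.57 ± 0.20, -4.63 ± 0.40 and -2.11 ± 0.20 (SE), with 1 and 5 UMIs of Robo2. Unc5c, which binds netrin and Flrt proteins, was higher at 0.95 ± 0.13 (SE). These counts stand beside 6.08% of all genes higher and 5.94% lower in this group, and the counts of higher list members are near that share. In all, 1 of 10 tested FLRT and netrin receptors was higher and 4 lower (median -0.54, against 0.00 over all genes). Of 19 leucine-rich repeat organisers 2 were higher, Lrrc4c and Lingo1, and 6 lower, among them Lrrtm4, Lrfn5 and Lingo2 (median -0.74). Nrxn3 and Gnas were the 2 of 17 signalling and scaffold genes that were higher (median 0.02). Adgrb3 and Adgrb2 were the 2 of 9 other adhesion receptors that were lower (median -0.51). Each call passed the edgeR test at an adjusted p of 0.05.

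The Avp Oxt group had 29 and 19 nuclei, below the minimum, and was tested after lowering it to 10 nuclei. It is neuroendocrine-like from Avp, Oxt and Sim1, the first 2 of which encode vasopressin and oxytocin. Tenm2 stood at 263.7 and 163.8 CPM, the lowest of the 15 groups, with a log2 difference from the average of the 13 others of -3.71 ± 0.24 (SE, edgeR adjusted p = 6.36e-21). Tenm3 was also lowest, at 71.0 and 29.8 CPM (7 and 2 UMIs), at -3.72 ± 0.37 (SE, edgeR adjusted p = 1.31e-12). Flrt2 had 0 UMIs in both libraries, where 3 counts would be 30.4 and 44.7 CPM, against 41.6 CPM at the lowest in the tested groups. Tenm4 and Adgrl3 were lower, at -1.17 ± 0.23 and -1.02 ± 0.17 (SE), and Flrt3 was higher, at 0.97 ± 0.32 (SE, edgeR adjusted p = 0.0445).

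Of the 10 members, 1 was higher and 5 lower in Avp Oxt neurons, where 3.92% of all genes were higher and 4.74% lower. Tenm1, at 628.9 and 744.5 CPM, was not called, in contrast to its low level in the Vipr2 Vip group. Lrrtm4 and Unc5c were higher in Avp Oxt neurons, by 1.32 ± 0.12 and 1.53 ± 0.15 log2 units, and Nrxn3 and Lingo2 were lower, by -2.77 ± 0.25 and -2.81 ± 0.22 (SE). The FLRT and netrin receptor list had 1 of 9 higher and 3 lower (median -0.18, against -0.09 over all genes), the leucine-rich repeat list 3 of 18 higher and 3 lower (median -0.59), the signalling list 1 of 17 higher and 3 lower (median -0.18), and the other adhesion receptors 1 of 8 lower (median -0.64), by the edgeR test. Summed astrocyte markers were 1856 CPM in one library and 223.3 CPM in the other, and their part was not tested.

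**Figure D3:**
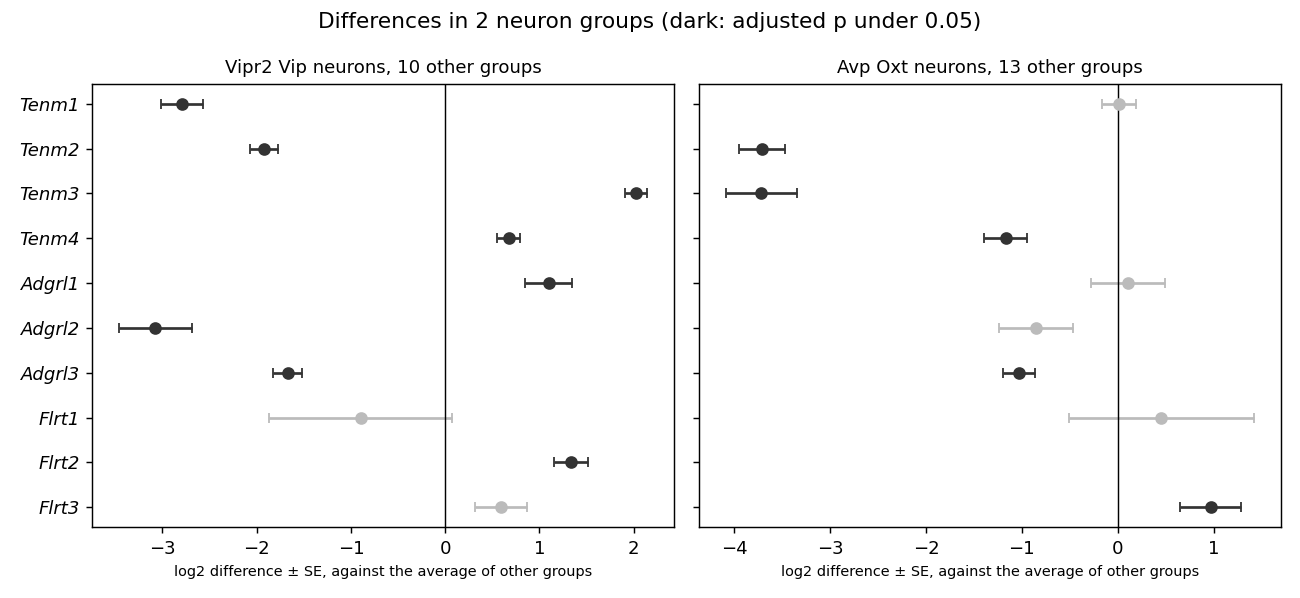
Log2 difference ± SE of each gene in the Vipr2 Vip neurons against 10 other groups and in the Avp Oxt neurons against 13 other groups; dark points passed at an adjusted p of 0.05, and Flrt2 is left out at right because its count there was 0. Tenm3 is higher in the first group and lower in the second, while Tenm2 is lower in both.

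Tenm2 was high in 3 other groups. It stood at 6152 and 5288 CPM in Ebf3 Tafa1 neurons, 6050 and 5388 CPM in Myo5b Cpne9 neurons and 5844 and 5264 CPM in Hmcn2 Nr5a1 neurons, which overlapped one another and lay apart from the next group. Their log2 differences were 0.90 ± 0.11, 1.02 ± 0.10 and 0.87 ± 0.10 (SE, edgeR). Adgrl2 was high in the last 2 groups but not the first, at 345.2 and 341.4 CPM in Myo5b Cpne9 neurons and 350.0 and 268.2 CPM in Hmcn2 Nr5a1 neurons, against 122.3 and 123.0 CPM in Ebf3 Tafa1 neurons.

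Flrt2 separated these groups again. It stood at 63.3 and 41.6 CPM in Myo5b Cpne9 neurons, a log2 difference of -1.46 ± 0.21 (SE, edgeR adjusted p = 2.66e-07), and at 224.3 and 162.6 CPM in Hmcn2 Nr5a1 neurons. With the smaller groups let in, the Myo5b Cpne9 difference was -0.61 and not called (edgeR adjusted p = 1), and that of Vipr2 Vip neurons was 2.13. That average takes in 3 more groups, among them Avp Oxt neurons with 0 Flrt2 UMIs in both libraries. The cause of the shifts was not tested. Nr5a2 Corin neurons, arcuate-like from Nr5a2, Corin and Npy, had Tenm2 at 1876 and 1862 CPM, a log2 difference of -0.999 ± 0.12 (SE, edgeR adjusted p = 1.14e-09).

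Tenm1 was called higher in 5 of the 11 tested groups, among them Sst Lmo7, Pmch Ebf2 and Hcrt Hdc neurons. Over all genes and groups, 4.8% of such tests were higher. Sst, Pmch and Hcrt encode the peptides somatostatin, melanin-concentrating hormone precursor and orexin, and serve here as group names only. Tenm1 stood at 1048 and 999.9 CPM, 898.4 and 965.4 CPM, and 915.9 and 984.2 CPM in these named groups, at log2 differences of 0.81 ± 0.13, 0.72 ± 0.11 and 0.66 ± 0.11 (SE, edgeR). Prkch Synpo2 neurons, too few for this test with 41 and 15 nuclei, had the highest mean, at 923.9 and 1129 CPM, overlapping Sst Lmo7 neurons. At leiden resolution 2 the Hcrt Hdc group had 108 nuclei in place of 297, and its Tenm1 difference was -0.022 (edgeR adjusted p = 1). At that resolution Pmch led a separate cluster of 22 nuclei, and the 265 nuclei led by Lmx1a and Ttc6 kept most leading genes of Pmch Ebf2, with a Tenm1 difference of 0.59. The average includes the Vipr2 Vip group, where Tenm1 was lowest, at 104.3 and 106.2 CPM. How many of the 5 higher calls rest on that group was not tested. Correlations across the 11 group means moved with that 1 group: Pearson's r between Tenm1 and Tenm3 was -0.89 with it and -0.25 over the 10 groups without it, and for Tenm1 and Adgrl2 it was 0.83 and -0.03. For Tenm3 and Adgrl3 it was -0.91 and -0.75. These describe groups drawn from the same 2 libraries and carry no test.

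The genes most alike over the 11 groups, by Pearson's r on log2(CPM + 10) among 7739 genes, were Banf2 (0.96), Csmd1 (0.92) and Kcnh7 (0.92) for Tenm2, and Avp (0.94), Vipr2 (0.93) and Ogt (0.93) for Tenm3. The Tenm3 values moved with the Vipr2 Vip group: over the 10 groups without it r was 0.54 for Avp, 0.54 for Vipr2 and 0.68 for Ogt. Over all 15 groups r between Tenm3 and Avp was -0.46, and Avp was highest in Avp Oxt neurons (1897 and 3276 CPM), where Tenm3 was lowest. For Tenm1 they were Slc1a4, Slc16a4 and Xkr4 (0.96, 0.96 and 0.95). For Tenm4 they were Gm15414, Ankrd27 and Dgkg (0.89, 0.85 and 0.84), of which Gm15414 overlaps Tenm4 on the opposite strand. For Adgrl1 they were Zmynd8, Aloxe3 and Ikbkg (0.95, 0.93 and 0.93), for Adgrl2 Cntn3, Mlip and Tmem108 (0.97, 0.95 and 0.95), and for Adgrl3 Caln1, 4933412O06Rik and Lhfpl3 (0.97, 0.97 and 0.96). For Flrt2 they were Nt5dc3, 1110019D14Rik and Dnajc10 (0.94, 0.93 and 0.92), for Flrt3 Ccdc127, Ift52 and Gcc2 (0.94, 0.93 and 0.92), and for the sparse Flrt1 Ndufb9, Vps37a and Ubl7 (0.89, 0.86 and 0.86). Over all 15 groups these 30 correlations ranged from -0.46 to 0.95 (median 0.61), and 29 were lower than over the 11 groups they were chosen on.

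Neurons with RNA of GABA markers were set against those with the glutamate transporter Slc17a6, which gave 1103 and 574 GABAergic and 790 and 327 glutamatergic nuclei. Nuclei with both (92 and 46) or neither (1035 and 516) were left out. Tenm2 and Adgrl2 were lower in GABAergic neurons and 0 members were higher by edgeR or DESeq2, also at an unadjusted p under 0.05 (all genes, 2.35% higher and 4.01% lower). Tenm2 stood at 3036 and 2944 CPM in GABAergic neurons, against 4460 and 3743 CPM in glutamatergic neurons, with a log2 difference of -0.50 ± 0.09 (SE, edgeR adjusted p = 2.29e-06). Adgrl2 stood at 166.9 and 173.8 CPM, against 251.6 and 226.4 CPM, with a log2 difference of -0.56 ± 0.10 (SE, edgeR adjusted p = 3.65e-07). Neither overlapped between the groups, and without the Vipr2 Vip neurons the differences were -0.46 and -0.50. By summed marker RNA, Ebf3 Tafa1, Myo5b Cpne9 and Hmcn2 Nr5a1 neurons, the groups highest in Tenm2, were glutamatergic, as were Pmch Ebf2 neurons. Adgrl2 was also highest in Myo5b Cpne9 and Hmcn2 Nr5a1 neurons. The part of these groups in the transmitter differences was not tested.

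Both calls rest on the pairing of the 2 groups within a library: without it 0 of 10 members passed by edgeR (1 at an unadjusted p under 0.05), and DESeq2, with the pairing, called 1, Tenm2. The other 8 members differed by between -0.20 and 0.13 log2 units and were not called. Robo2, Unc5c and Slitrk6 were lower and Unc5d, Slitrk2 and Nrxn3 higher in GABAergic neurons, at -0.73, -0.37, -1.99, 0.34, 1.11 and 2.89 log2 units in that order. By list, beside 2.35% of all genes higher and 4.01% lower, FLRT and netrin receptors had 1 of 12 higher and 2 lower (median -0.14), leucine-rich repeat organisers 1 of 21 higher and 2 lower (median -0.05), and signalling genes 3 of 17 higher and 1 lower (median 0.05) by edgeR. The 10 other adhesion receptors tested had a median of -0.14.

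**Figure D4:**
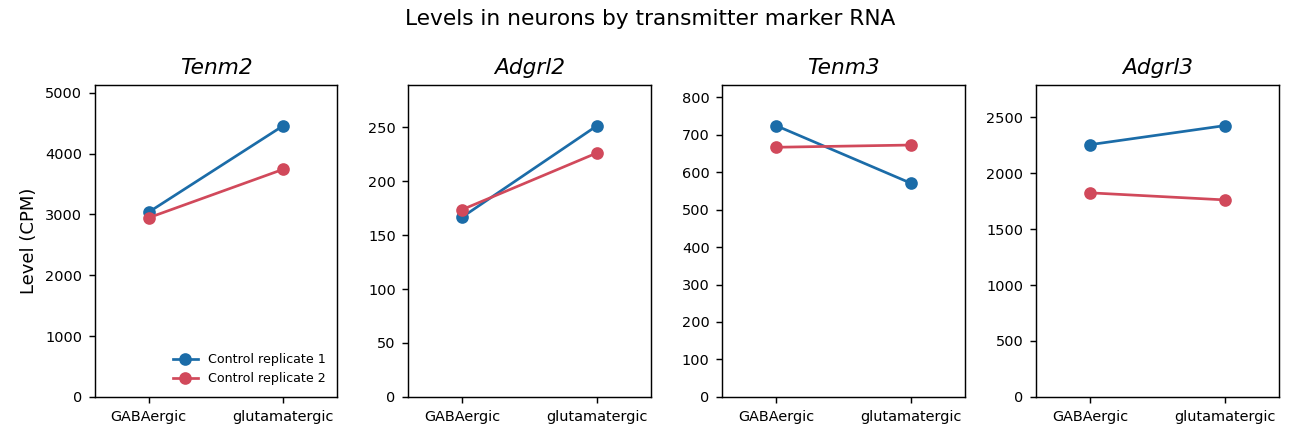
Level (CPM) of Tenm2, Adgrl2, Tenm3 and Adgrl3 in GABAergic and glutamatergic neurons, with a line joining the groups of each Control library and axes from 0. Tenm2 and Adgrl2 are lower in GABAergic neurons in both libraries, while for Tenm3 and Adgrl3 the libraries differ in direction.

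RNAs of several members were read in the same neuron nuclei. In the 1766 and 1062 neurons with at least 2000 UMIs, each thinned to 2000, exactly 3 teneurins were seen in 40.7% and 40.1% and all 4 in 17.6% and 23.3%. None was seen in 1.93% and 1.22%. A single latrophilin was seen in 58.7% and 54.3% and none in 3.28% and 6.31%. At least 1 teneurin together with at least 1 latrophilin was seen in 94.9% (95% exact interval 93.8 to 95.9) and 92.7% (90.9 to 94.2), while 65.3% and 64.5% had no Flrt RNA. The 1254 and 401 shallower neurons were left out, intervals cover counting error only, and these shares are not corrected for free RNA or for doublets, which remain in the data and whose part was not tested. Thinned to 500 UMIs, 3 or more teneurins were seen in 9.47% and 14.4% of neurons (median depth 2269 and 2633 UMIs before thinning), against 0 of 374 and 0 of 286 oligodendrocytes (670.5 and 686.5 UMIs). In precursors, 3 or more were seen in 0 of 134 and 2 of 72 nuclei. At least 1 teneurin with at least 1 latrophilin was seen in 55.5% and 50.2% of neurons. Precursors came nearest among glia, at 29.9% and 43.1%. The shares were 20.8% and 21.9% in astrocytes, 11.1% and 10.7% in tanycytes, 5.08% and 4.55% in oligodendrocytes, and 1.82% and 0% in microglia. By gene, Tenm2 was seen in 63.4% and 63.6% of neurons, against 3.63% and 4.98% of astrocytes, and Adgrl3 in 60.9% and 52.8% of neurons, against 80.9% and 71.1% of astrocytes. Unthinned, Adgrl3 was seen in 91.4% and 91.3% of neurons and in 90.8% and 85.6% of astrocytes.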

How the data were processed

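Nuclei from frozen whole hypothalamus were prepared with the 10x Chromium 3′ chemistry, per the labels' protocols. The deposited matrices hold raw UMI counts for each barcode, per the file headers. Cell Ranger 5.0.1 was used, per the submitters' processing notes, which give the human build GRCh38, yet the identifiers are of mouse; which mouse build was used is not stated. GENCODE M21 was used for overlaps: 32235 of 32285 identifiers are in it. No member overlaps a gene on its own strand; 9 overlap one on the other, which matters if counting ignored strand.

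Nuclei needed 300 genes and at most 5% mitochondrial counts, which removed none. Scrublet called 30 of 6158 Control nuclei (0.487%) and did not work as a filter, so doublets remain; 6128 nuclei were used. Clustering used scanpy 1.11.5 and leiden (resolution 1, 20 neighbours, 40 components, 3000 variable genes), with the members and 4 fixed lists held out. A cluster took a class name with 3 of its markers among 10 leading genes, and a neuron needed 6 of 12 markers over 2-fold above the named clusters; names mean class-like. Counts summed per library and group (at least 20 nuclei) were tested with edgeR 4.0.16 (quasi-likelihood, TMM, low-count filter, library as a block, since each group comes from both libraries) in R 4.3.3. P-values were adjusted by Benjamini-Hochberg over all genes and groups of a comparison at 0.05. The edgeR fits were tested on data simulated at a fixed spread, with genes raised in a single group of each comparison. That group was neurons among classes, Nr5a2 Corin among neuron groups and GABAergic neurons in the last comparison. Rises in smaller groups, such as microglia, tanycytes or Vipr2 Vip neurons, were not simulated, so the shares below do not cover them. Of 2-fold rises, 29% were recovered between classes, 43% between neuron groups and 23% between GABAergic and glutamatergic neurons. Of 4-fold rises, 86%, 98% and 96% were recovered, with 0, 3 and 5 false calls. A difference that was not called may therefore still be present. DESeq2 1.42.0 was an alternative.

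Genes named from a list were those with the 3 smallest p per direction. Members, lists and comparisons were chosen with earlier results of these data known.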

Additional observations from a re-analysis of the deposited data

How the results depend on the processing

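Of 76 called differences of single members, recomputed 1081 times, 926 kept direction and call, 80 kept direction only and 12 turned round. The remaining 63 moved by more than the spread when 1 library was left out. All of these came from such fits: 37 of the 76 differences moved without replicate 1 and 26 of the 76 without replicate 2. Fits of 1 library leave no residual degrees of freedom and give values only, with no counts of calls. A difference called under neither setting counted as kept whatever its sign. Without the replicate block, calls between neuron groups were 17 in place of 37, and between GABAergic and glutamatergic neurons 0 in place of 2 (1 at an unadjusted p under 0.05 by edgeR); DESeq2 gave 1. At leiden resolution 2 there were 58, over more groups.

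Nuclei with at least 1000 UMIs, a planned setting, gave 23 calls between classes in place of 37, had no microglia class and turned several values round: Flrt2 in astrocytes (-0.16), Adgrl2, Tenm4, Tenm3 and Tenm1 in oligodendrocytes (2.56, 2.97, 0.20 and 4.46), Tenm3 in precursors (-0.93), Adgrl3, Tenm3 and Flrt2 in tanycytes (-1.59, -0.43 and -0.49), Tenm4 in Vipr2 Vip neurons (-0.15) and Flrt2 in Ebf3 Tafa1 neurons (-0.34). There the oligodendrocyte class took in a cluster of 100 nuclei with summed neuron markers of 21670 CPM, against 720.8 CPM in the other oligodendrocyte cluster. A rule that leaves such a cluster unnamed was added after these reversals were seen, and is used nowhere else. With it, 27 calls were made and 1 value was turned round, Adgrl3 in tanycytes (-0.9999), while Adgrl2 in oligodendrocytes (-8.06), Tenm1 in oligodendrocytes (-1.64), Flrt2 in astrocytes (0.75), precursors (0.89) and tanycytes (0.48), and Tenm3 in tanycytes (0.59) kept direction without the call.

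Flrt2 in tanycytes was -0.12 at resolution 0.5. At resolution 2, Flrt2 and Tenm1 in Ebf1 Ebf2 neurons were 0.63 and -0.038, and Tenm1 in Hcrt Hdc neurons was -0.022. With 10 nuclei per sum, where the average takes in Avp Oxt neurons with 0 Flrt2 UMIs, Flrt2 was 0.41 in Nr5a2 Corin and 0.80 in Ebf1 Ebf2 neurons. The cause of these was not tested. Microglia and the smaller neuron groups are limited by depth.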
